A study of Mus musculus with 18 samples.

Results

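Wapl-deficient (Wapl KO) and wild-type (WT) donor T cells were compared by RNA sequencing 7 days after allogeneic haematopoietic stem cell transplantation. The comparison took every library that the labels place in these groups, 3 Wapl KO and 3 WT, out of 18 samples in the series, and all 46073 genes of the deposited table. The donors were C57BL/6 mice carrying the CD45.2 allele, and donors and recipients were 8 to 12 weeks old. The recipients were CByJ.SJL(B6)-Ptprca/J mice (H-2d, CD45.1), which the cell type label calls BALB/c and which differ from the donors at the major histocompatibility complex. They were irradiated with 8 Gy in a split dose and received 5000000 T-cell-depleted bone marrow cells with 1000000 splenic T cells. Live CD3+ CD45.2+ cells were sorted from the recipient spleen, and each library came from a pool of 2 to 4 mice that the design text describes as an independent replicate. A matching pair of groups, 3 WT and 3 Wapl KO libraries from syngeneic transplants (B6.SJL-Ptprca Pepcb/BoyJ recipients, 9.5 Gy, 8500000 T cells), served for comparison. The label of the syngeneic KO samples names the allogeneic recipient strain in 1 field and the syngeneic transplant in another. The labels say that the purchased C57BL/6 donors were female, and they do not say which Cre line or which part of Wapl was used for the KO.

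Wapl releases cohesin from chromosomes. Cohesin is the ring that holds sister chromatids together and extrudes chromatin loops until it meets CTCF, and without Wapl it stays on DNA longer and loops grow. Donor T cells that meet the recipient's foreign major histocompatibility antigens divide, acquire cytotoxic functions and cause graft-versus-host disease.

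Few genes separated the Wapl KO from the WT allogeneic T cells. Of 18447 genes with enough counts to test, 10 passed an adjusted p of 0.05 in edgeR's quasi-likelihood test, 8 higher in KO (0.0434% of the tested genes) and 2 lower (0.0108%), together 0.0542%. The 8 were the histone gene Hist1h4m, the interferon-inducible gene Ifi208, the pseudogene Gm33707, the ubiquitin ligase gene Rnf43 and the Y-linked genes Ddx3y, Eif2s3y, Kdm5d and Uty. The 2 were the unclassified transcripts Gm42427 and Gm10524. At an unadjusted p of 0.05, 361 genes were higher (1.96%) and 410 lower (2.22%), together 4.18%, and the 3 KO libraries lay wholly above the 3 WT libraries for 607 genes (3.29%) and wholly below them for 806 (4.37%). DESeq2 called 77 genes on the same counts, 30 higher (0.163%) and 47 lower (0.255%), among them all 10. Without any 1 of the 3 WT libraries the edgeR count was 3, namely Hist1h4m, Ifi208 and Gm33707, and without KO replicate 3 it was 15, with 9 of the 10 among them.

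**Figure D1:**
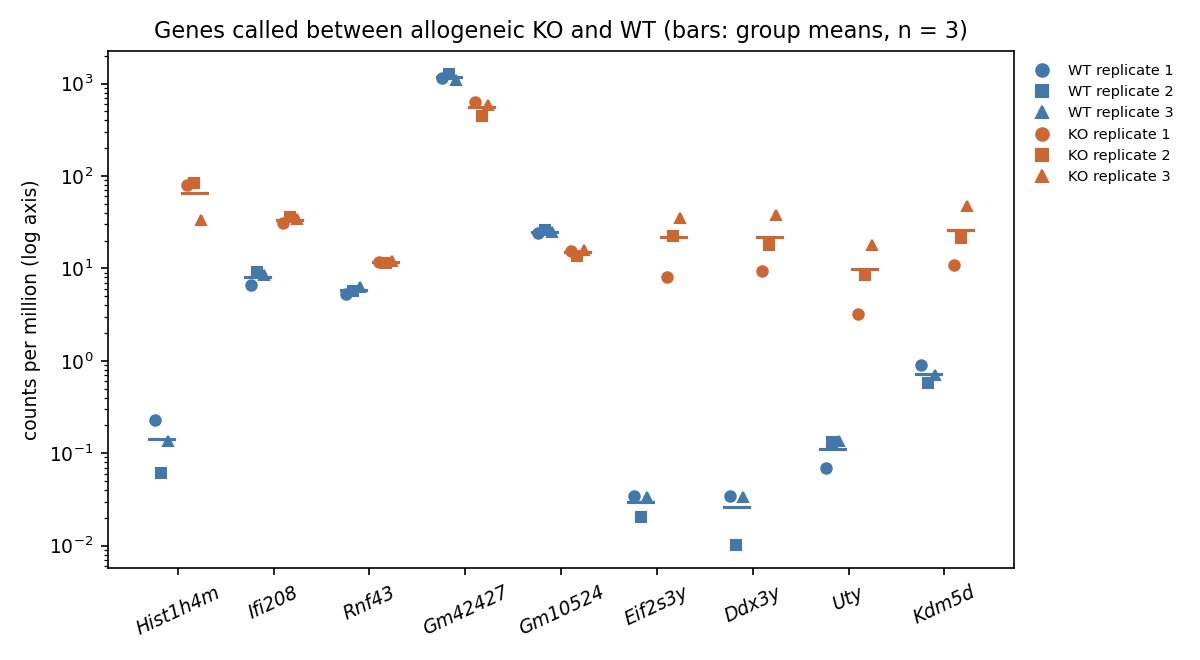
Level of the genes called between allogeneic KO and WT, in counts per 1000000 counts (CPM) on a log axis, 1 point per library with a bar at each group mean (n = 3). Gm33707 is not drawn. The KO libraries lie above the WT libraries for the higher genes shown and below them for Gm42427 and Gm10524.

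The KO group was not uniform. Total counts ran from 52517132 to 89007094 in WT and from 45965645 to 66504712 in KO. On the first principal component of the 6 libraries, which held 38% of the variance, KO replicates 1 and 2 were at 52.0 and 44.3, KO replicate 3 at -41.0 and the WT libraries between -26.9 and -3.7. Ribosomal RNA took 17.8%, 9.44% and 8.26% of the counts in the WT libraries and 18%, 16.7% and 16.0% in the KO libraries. The T cell label held, since 16 genes of T cell identity summed to between 6770 and 7320 CPM in WT and between 6370 and 8850 in KO. Other cells left traces: 20 B cell markers, most of the sum from Ighm and Igkc, came to 1680, 1330 and 1970 CPM in WT and 544, 1070 and 3440 in KO. Myeloid markers, 22 genes, summed to 701, 555 and 927 CPM in WT and 249, 504 and 465 in KO, so the groups did not overlap (exact permutation p = 0.1, the smallest that 3 against 3 can give). Ngp, S100a8, S100a9, Camp and Ly6g, genes of neutrophils, summed to 425, 401 and 665 CPM in WT and 11.5, 310 and 220 in KO. Myeloid markers other than neutrophil genes were not summed apart, so the myeloid sum does not show whether they were lower too. The part of ribosomal RNA, of other cells and of KO replicate 3 in the differences below was not tested, beyond the values without that library. In these bulk samples, fewer cells of a type and less RNA per cell cannot be told apart.

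Wapl itself was not among the called genes. Its level was 169, 156 and 158 CPM in WT and 145, 124 and 151 CPM in KO. Every KO library lay below every WT library, by a small margin, and the log2 fold change of -0.20 ± 0.11 (SE) had an unadjusted p of 0.101 and an adjusted p of 0.963. In the syngeneic libraries the same gene fell, from 188 ± 20.8 to 135 ± 6.29 CPM (SD, n = 3; log2 fold change -0.48, adjusted p = 0.0368). Counts over the whole gene do not show whether the deleted part was read, so they do not check the genotype. None of the 8 tested genes within 1 Mb of Wapl (chromosome 14, 34673928 to 34747983, GRCm38) had an unadjusted p under 0.05, beside 4.18% of all tested genes.

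The other subunits and regulators of cohesin did not pass the test either. Among 18 genes, Wapl included, 0 were called by edgeR, 0 by DESeq2 and 1 was higher at an unadjusted p of 0.05, against 1.96% of all tested genes. The median log2 fold change was 0.18, against 0.03 over all tested genes, and 14 of the 18 were above 0. The 1 gene was Pds5b, whose product binds the cohesin ring together with Wapl, at 93.7, 83.1 and 89 CPM in WT and 119, 99.4 and 100 CPM in KO (0.26 ± 0.10, edgeR adjusted p = 0.963). Stag2, a ring subunit, was at 136, 116 and 118 CPM in WT and 144, 165 and 138 in KO, without overlap (0.27 ± 0.13). The ring genes Smc3 (0.23 ± 0.11), Rad21 (0.23 ± 0.15) and Smc1a (0.15 ± 0.14), the loader gene Nipbl (-0.04 ± 0.12) and Ctcf (0.10 ± 0.10) had overlapping groups. KO replicate 1 was the highest of the 6 libraries for Smc3, Rad21, Smc1a and Ctcf.

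The smallest adjusted p belonged to one of 2 histone H4 genes with the same coding sequence. Histone H4 is a core protein of the nucleosome, and its replication-dependent genes lie in clusters and are copied into RNA mainly during S phase. Hist1h4m (chromosome 13, 21811746 to 21812147, GRCm38, plus strand) was nearly unread in WT, at 0.226, 0.0611 and 0.135 CPM (13, 6 and 8 counts). In KO it reached 79.9, 84.2 and 33.7 CPM (3408, 5045 and 2331 counts). The groups lay far apart, with a log2 fold change of 8.97 ± 0.56 and an adjusted p of 5.72e-05. Hist1h4n, its copy, was at 105, 67.4 and 71.2 CPM in WT and 68.2, 87.1 and 38.3 CPM in KO, with overlap (-0.33 ± 0.27, adjusted p = 0.963).

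The sequences show how little there is to tell the pair apart. The first 120 coding bases, read from GENCODE M21 transcripts on GRCm38, are given for Hist1h4m, for its copy and for Hist1h4h, one of the nearest other H4 genes. Capitals in Hist1h4m and Hist1h4h mark the 7 positions at which those genes differ from each other, and Hist1h4n has no capitals because it does not differ from Hist1h4m.
Hist1h4m: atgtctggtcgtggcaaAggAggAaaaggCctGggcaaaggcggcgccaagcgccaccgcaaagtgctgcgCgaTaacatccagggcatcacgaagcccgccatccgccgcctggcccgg
Hist1h4n: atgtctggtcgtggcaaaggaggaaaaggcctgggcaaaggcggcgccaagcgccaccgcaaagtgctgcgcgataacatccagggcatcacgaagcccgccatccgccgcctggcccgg
Hist1h4h: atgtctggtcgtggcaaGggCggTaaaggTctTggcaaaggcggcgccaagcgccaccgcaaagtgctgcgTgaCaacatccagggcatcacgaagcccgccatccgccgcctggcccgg
Over the whole coding sequence of 312 bases, Hist1h4m and Hist1h4n had 0 differences, and Hist1h4h and Hist1h4i had 10 each. The transcripts of the pair, 402 and 430 bases long, had 1 difference in 402 aligned bases. Of all stretches of 50 bases in Hist1h4m, 89.8% also occur in Hist1h4n. All 12 other H4 genes compared code for the same residues as Hist1h4m. How the authors' counting shared reads between the copies is not given in the sources used here, so the values of each copy alone are uncertain.

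Summed, the pair differed much less. The sum was 105, 67.5 and 71.4 CPM in WT and 148, 171 and 72.0 CPM in KO, and KO replicate 3 lay within the WT range (exact permutation p = 0.2). In an edgeR fit with both counted as 1 gene, an alternative added after the data were seen, the log2 fold change was 0.68 ± 0.30 with an adjusted p of 0.963, and 8 genes were called. Within the pair, Hist1h4m held 0.215%, 0.0905% and 0.189% of the summed level in WT and 54.0%, 49.1% and 46.8% in KO. This share was wholly apart between the groups (exact permutation p = 0.1, the smallest possible). The syngeneic libraries had shares of 0.328%, 0.329% and 0.413% in WT and 52.1%, 42.3% and 45.8% in KO. As a percentage of 11 other H4 genes the pair came to 3.08, 2.93 and 3.04 in WT and 3.52, 3.45 and 3.11 in KO, again without overlap (exact permutation p = 0.1).

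**Figure D2:**
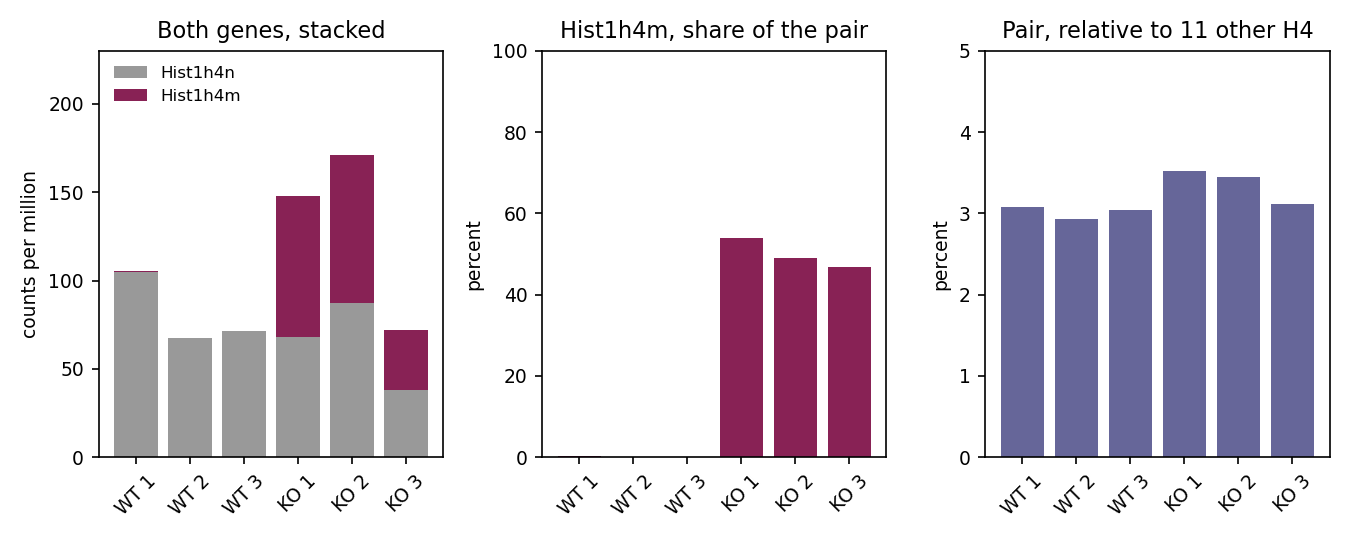
The histone pair in each of the 6 allogeneic libraries: CPM of both genes stacked (left), the share of Hist1h4m in the pair in percent (middle), and the pair as a percentage of 11 other H4 genes (right). Hist1h4m holds 46.8% to 54.0% of the pair in the allogeneic KO libraries and at most 0.215% in the allogeneic WT libraries, while the summed level overlaps.

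The rest of the histone genes were higher in 2 of the 3 KO libraries. Of 61 tested replication-dependent histone genes, 1 was called (Hist1h4m), beside 0.0542% of all tested genes. At an unadjusted p of 0.05, 15 were higher and 0 lower, beside 1.96% and 2.22% of all tested genes. The median log2 fold change of the histone genes was 0.55. It was above 0 for 60 of them, as for 10159 of all 18447 tested genes. The histone genes summed to 11900, 7910 and 8320 CPM in WT and 15700, 16700 and 8280 in KO. KO replicates 1 and 2 were thus above all WT libraries and KO replicate 3 between WT replicates 2 and 3. The 12 H4 genes other than Hist1h4m had a median of 0.54, and none reached an unadjusted p of 0.05. Hist1h4a had the highest of their values (0.67 ± 0.32), with 156, 94.6 and 112 CPM in WT and 204, 271 and 104 in KO. Without KO replicate 3, 55 of the 61 histone genes were higher at an unadjusted p of 0.05 and the median was 0.82, while over all tested genes 7.55% were higher and 4.92% lower in that fit.

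Ifi208 rose about equally in the 3 KO libraries. It belongs to the Ifi200 family, a cluster of interferon-inducible genes on chromosome 1 whose products include the DNA sensor Aim2. Its level was 6.54, 9.05 and 8.48 CPM in WT and 30.6, 36.3 and 34.1 CPM in KO. All KO libraries lay well above all WT libraries. The mean rose from 8.02 ± 1.31 to 33.7 ± 2.90 CPM (SD, n = 3), a log2 fold change of 2.07 ± 0.19 with an adjusted p of 0.000548, and all 15 alternative settings kept the call (adjusted p from 3.49e-21 to 0.00771). None of the 18 tested genes within 1 Mb of Ifi208 (chromosome 1, 173673675 to 173698395, GRCm38) had an unadjusted p under 0.05, beside 4.18% of all tested genes.

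None of its tested relatives passed the test. Of 15 family members, 12 could be tested, Ifi202b was too low and Pydc3 and Pydc4 could not be matched by name. Ifi208 was the 1 member called, beside 0.0542% of all tested genes, and the family median was 0.13, against 0.03 over all tested genes. Ifi213 was at 9.91, 16.8 and 16.4 CPM in WT and 11, 12.6 and 18.5 in KO, with wide overlap (-0.03 ± 0.21). Ifi206 had a log2 fold change of -0.09 ± 0.23. The most expressed member, Ifi203, stood at 131 ± 16.8 CPM in WT and 141 ± 21.1 in KO (0.10 ± 0.14), and Aim2 at 21.8 ± 2.60 and 24.2 ± 3.83 (0.15 ± 0.14). The tested members other than Ifi208 ran from -0.49 ± 0.38 (Ifi204) to 0.32 ± 0.30 (Ifi211).

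Ifi208 and Ifi213 have nearly the same sequence before their start sites, which is why both are shown. Each stretch of 300 bases runs from 250 bases before to 50 after the start (RefSeq, GRCm38.p6). Capitals mark the motif GAAANNGAAA, the core of the interferon-stimulated response element, searched on both strands.
Ifi208 (chr1:173673415-173673714, plus strand): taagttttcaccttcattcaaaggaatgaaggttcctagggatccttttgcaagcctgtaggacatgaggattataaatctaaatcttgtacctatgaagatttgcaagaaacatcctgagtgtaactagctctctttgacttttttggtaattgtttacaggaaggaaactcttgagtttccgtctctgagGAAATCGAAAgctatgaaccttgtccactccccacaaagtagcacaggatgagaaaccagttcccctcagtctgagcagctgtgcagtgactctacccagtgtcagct
Ifi213 (chr1:173599223-173599522, minus strand): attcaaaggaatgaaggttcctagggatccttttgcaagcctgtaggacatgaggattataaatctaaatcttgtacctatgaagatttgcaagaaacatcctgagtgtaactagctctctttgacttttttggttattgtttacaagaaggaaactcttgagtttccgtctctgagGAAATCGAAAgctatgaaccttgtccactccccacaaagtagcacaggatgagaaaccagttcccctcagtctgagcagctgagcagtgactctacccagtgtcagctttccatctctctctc
In alignment, 282 of 285 bases of these promoters were identical (98.9%), and 253 of 282 were identical between Ifi208 and Ifi206 (89.7%). The motif began 58 bases before the start in Ifi208 and 73 bases before it in Ifi213. It occurred in 9 of the 12 family genes with a promoter in the table and in 3.99% of all 27025 genes with a promoter there, or 3.44% of all 32851 promoters of this length. A match is a description of the letters and not of a bound site. Of all 50-base stretches in Ifi208 transcripts, 18.1% also occur in Ifi213 and 6.07% in Ifi206, so some of its reads could be shared with them.

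No gene of the wider interferon lists was called. The median of 26 interferon-stimulated genes was -0.06, and 0 were called. At an unadjusted p of 0.05, 0 were higher and 2 lower, beside 1.96% and 2.22% of all tested genes. The 2 were the antiviral synthetase gene Oas2 (-0.88 ± 0.34) and its relative Oasl2, at 11.7, 12.6 and 13.7 CPM in WT and 9.97, 6.69 and 8.13 in KO (-0.62 ± 0.26). Irf7 (-0.09 ± 0.26), a transcription factor of this response, had overlapping groups. Of 20 interferon gamma GTPases and targets, 0 were called and 1 was lower at that p, the guanylate-binding protein gene Gbp9 (-0.38 ± 0.16).

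Gm33707, annotated as a processed pseudogene (chromosome 3, 60769887 to 60770455, GRCm38, minus strand), was read almost only in KO. It had 0, 1 and 0 counts in WT and 59, 41 and 82 in KO. After scaling for library size the ratio was 228, with a 95% interval from 40.4 to 9050 that covers counting error only. Every alternative setting kept the call, with an adjusted p of at most 0.02. Gm33707 was read almost only in KO in the syngeneic libraries too. It was at 0, 0.0171 and 0.017 CPM in WT and 0.844, 1.10 and 1.63 in KO there (edgeR adjusted p = 0.000174). Of its 50-base stretches, 11.5% occur in transcripts of other genes. Of 8 tested neighbours within 1 Mb, 2 were higher at an unadjusted p of 0.05, beside 1.96% of all tested genes. Mbnl1, a splicing regulator gene, was 1 of the 2 (0.41, DESeq2 adjusted p = 0.00203).

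Rnf43, a ubiquitin ligase that removes Wnt receptors from the cell surface, rose in all 3 KO libraries. Its level was 5.31, 5.70 and 6.32 CPM in WT and 11.6, 11.4 and 12.0 in KO. The spread within each group was small beside the distance between them: 5.78 ± 0.51 against 11.7 ± 0.281 CPM (SD, n = 3), a log2 fold change of 1.01 ± 0.13 with an adjusted p of 0.0112. The call was lost without any 1 WT library (adjusted p from 0.0682 to 0.167) and with the 6 allogeneic libraries fitted alone, while the log2 fold change stayed between 0.96 and 1.08. Of 32 tested neighbours within 1 Mb of Rnf43 (chromosome 11, 87662722 to 87735539, GRCm38), 3 were higher at an unadjusted p of 0.05, beside 1.96% of all tested genes. None of the 32 was called, beside 0.0542% of all tested genes. Rnf43 overlaps 1110028F11Rik on the same strand, whose level was far lower (0.148 CPM in WT and 0.327 in KO).

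Y-linked RNA was present in every KO library and nearly absent from WT. Ddx3y, Eif2s3y, Kdm5d and Uty, 4 of the 8 tested genes on the Y chromosome, together summed to 1.04, 0.733 and 0.913 CPM in WT and 31.4, 70.1 and 138 in KO. The KO libraries differed from each other, KO replicate 3 being the highest. Eif2s3y, a translation initiation factor gene, was at 0.0347, 0.0204 and 0.0338 CPM in WT and 8.07, 22.3 and 35.5 in KO (adjusted p = 0.00229). Kdm5d, a histone demethylase gene, was at 0.902, 0.570 and 0.710 CPM in WT and 10.8, 21.3 and 46.9 in KO (5.19 ± 0.67, adjusted p = 0.0287). Xist, the RNA that silences 1 X chromosome in female cells, ran the other way across the KO libraries. It was at 572, 726 and 730 CPM in WT and 426, 264 and 54.8 in KO, apart between the groups but not called (-1.44 ± 0.73, edgeR adjusted p = 0.963). Kdm6a, the X-linked partner of Uty, was at 95.9, 104 and 101 CPM in WT and 88.2, 75.5 and 62.9 in KO (-0.41 ± 0.15, edgeR adjusted p = 0.963). Whether the KO pools held cells of both sexes is not given in the sources used here, and the part of this difference in the other results was not tested. With these 4 Y-linked genes, Xist and its antisense partner Tsix left out of the fit, 5 genes were called in place of 10. In the syngeneic libraries the 4 Y-linked genes summed to 0.934, 1.75 and 1.31 CPM in WT and 32.3, 99.4 and 116 in KO.

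Both genes that fell, Gm42427 and Gm10524, are listed in the annotation only as provisional transcripts. Gm42427 (chromosome 5, 44137980 to 44143271, GRCm38, plus strand) was abundant, at 1140, 1260 and 1100 CPM in WT and 624, 441 and 588 in KO. It fell in every KO library, with a log2 fold change of -1.08 ± 0.14 and an adjusted p of 0.0116. It also fell in the syngeneic libraries, from 1020 ± 79.0 to 506 ± 20.1 CPM (adjusted p = 0.0019). Its neighbour Gm42428 was at 25.5, 32.0 and 28.5 CPM in WT and 17.9, 9.02 and 14.5 in KO (-1.05 ± 0.23), which passed in DESeq2 (adjusted p = 0.0102) and not in edgeR (0.292). Of the 50-base stretches of Gm42427, 48.8% occur in transcripts of other genes, 29.2% in AC158975.2 alone, so its reads cannot be assigned with certainty. Gm10524, on chromosome 18, was at 23.9, 26.3 and 24.5 CPM in WT and 15.4, 13.5 and 16.0 in KO (-0.73 ± 0.11, adjusted p = 0.0473). It shares 26.9% of its 50-base stretches with Gm42427 and lies over Zfp236 on the opposite strand (-0.26 ± 0.16). Its call was lost under 12 of 15 alternative settings, and that of Gm42427 without any 1 WT library and with the allogeneic libraries alone.

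No gene of the S phase and G2/M lists passed the test. The S phase genes summed to 3500, 2660 and 3170 CPM in WT and 4560, 3840 and 3080 in KO, so KO replicates 1 and 2 lay above WT and KO replicate 3 within it. The G2/M genes summed to 4550, 3620 and 3870 CPM in WT and 6400, 4150 and 4320 in KO, where KO replicate 1 alone lay above WT. Of 28 S phase genes, 0 were called and 27 were above 0, with a median log2 fold change of 0.31. At an unadjusted p of 0.05, 4 were higher and 0 lower, beside 1.96% and 2.22% of all tested genes. The 4 were Pola1, Slbp, Cdc45 and Tyms. Pola1, a DNA polymerase subunit gene, was at 60.3, 43.2 and 58.6 CPM in WT and 88.2, 67.2 and 69.2 in KO, without overlap (0.47 ± 0.15, adjusted p = 0.963). Slbp, whose product binds histone messenger RNA, was at 94.1, 80.9 and 90.3 CPM in WT and 131, 124 and 95.2 in KO, also without overlap (0.40 ± 0.13). Of 25 G2/M genes, 0 were called, 5 were higher at that p (Bub1, Top2a, Kif11, Cdk1 and Hmmr) and all 25 were above 0, with a median of 0.34. Mki67, the proliferation marker, was at 1240, 1200 and 1240 CPM in WT and 1920, 896 and 1440 in KO, so the KO libraries lay on both sides of WT (0.21 ± 0.25). Without KO replicate 3, 22 of the 28 S phase and 16 of the 25 G2/M genes were higher at an unadjusted p of 0.05, beside 7.55% of all tested genes in that fit.

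**Figure D3:**
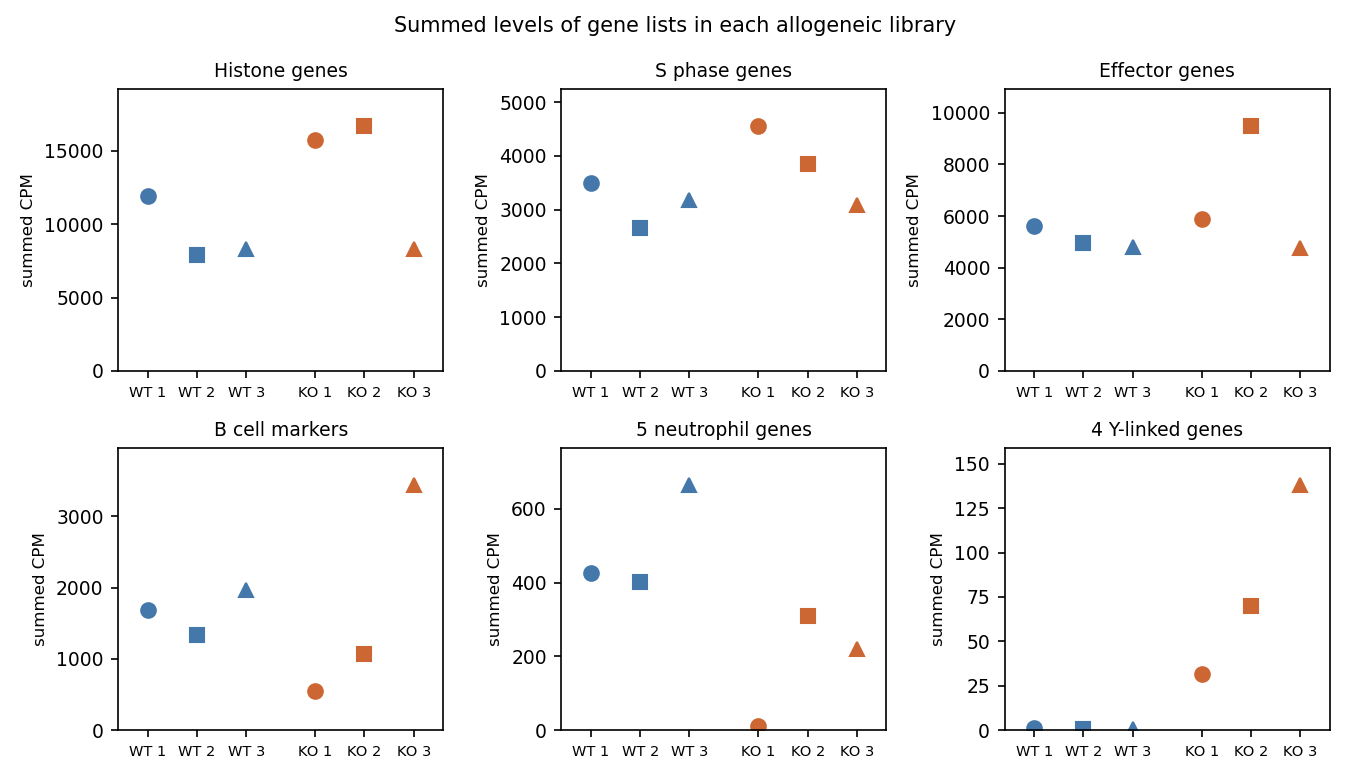
Summed level of gene lists in each allogeneic library, in CPM, 1 point per library on axes that start at 0. For the histone genes KO replicates 1 and 2 reach 15700 and 16700, while KO replicate 3 is at 8280, within the WT range.

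No effector gene passed the test, and the highest values came from KO replicate 2. Of 25 effector and cytotoxic genes, 22 were tested, with a median of 0.35, and 0 were called by edgeR or DESeq2. At an unadjusted p of 0.05, 3 were higher and 0 lower, beside 1.96% and 2.22% of all tested genes. The 25 genes summed to 5600, 4950 and 4810 CPM in WT and 5890, 9500 and 4760 in KO, with overlap (exact permutation p = 0.4). Gzmb, the granzyme that starts death of the target cell, was at 1510, 1330 and 1440 CPM in WT and 1840, 2770 and 1280 in KO (0.46 ± 0.30). Gzmk was at 95.6, 74.1 and 60.2 CPM in WT and 92.7, 170 and 109 in KO (0.70 ± 0.28, edgeR adjusted p = 0.963). Prf1, which forms the pore through which granzymes enter, was at 246, 256 and 291 CPM in WT and 344, 436 and 275 in KO (0.41 ± 0.18, edgeR adjusted p = 0.963). Ifng was at 41.2, 35.4 and 40.1 CPM in WT and 39.9, 72.1 and 33.6 in KO (0.32 ± 0.39). Markers of gamma delta T, NK and NKT cells were also highest in KO replicate 2, at 472 CPM in sum against 222 to 300 in the other allogeneic libraries.

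No inhibitory receptor gene passed the test. Of 15, 0 were called and 0 reached an unadjusted p of 0.05 in either direction, beside 0.0542% and 4.18% of all tested genes. The median was 0.02. Pdcd1, which codes for PD-1, was at 321, 287 and 328 CPM in WT and 396, 592 and 296 in KO, with overlap (0.46 ± 0.21). Havcr2, which codes for TIM-3, was at 103, 113 and 124 CPM in WT and 147, 159 and 128 in KO (0.36, adjusted p = 0.963 in edgeR). It was the 1 member of the 15 whose groups lay apart, beside 7.66% of all tested genes. Lag3 was at 196, 186 and 198 CPM in WT and 238, 233 and 190 in KO (0.19 ± 0.11), and Tigit had a log2 fold change of -0.07. Tox, a factor of T cell exhaustion, was at 105, 104 and 106 CPM in WT and 148, 151 and 131 in KO. All KO libraries were above WT (0.45 ± 0.12), but the adjusted p was 0.473 in edgeR and 0.0587 in DESeq2. Other factors of effector cells had overlapping groups, such as Tbx21 (0.10 ± 0.16), Eomes (0.26 ± 0.16) and Prdm1 (0.08 ± 0.17).

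Transcription factor genes induced by antigen receptor signals were among the lower values. Egr2 was at 27.8, 19.9 and 24.4 CPM in WT and 18, 16.1 and 13 in KO (-0.62 ± 0.16). Egr3, its close relative, was at 19.2, 14.5 and 17.7 CPM in WT and 12.0, 9.92 and 9.61 in KO (-0.70 ± 0.17). Maf, a factor of helper T cells that drives Il10 and Il4, was at 176, 158 and 135 CPM in WT and 112, 104 and 75.8 in KO (-0.69 ± 0.16). The groups lay apart for all 3, which passed in DESeq2 (adjusted p = 0.0248, 0.0106 and 0.0129) and not in edgeR (0.437, 0.404 and 0.307). Satb1, a chromatin organizer of T cells, was at 388, 421 and 373 CPM in WT and 298, 248 and 277 in KO, with the same pair of verdicts (-0.52 ± 0.13, DESeq2 adjusted p = 0.0106, edgeR 0.437). Of the 20 immediate early genes, Egr2 and Egr3 were the 2 lower at an unadjusted p of 0.05, beside 2.22% of all tested genes. The median was -0.12, with 14 below 0. The KO libraries lay wholly below WT for 5, beside 4.37% of all tested genes. Egr1, of the same family, was 1 of these 5, at 57.5, 50.6 and 52.1 CPM in WT and 44.9, 37.3 and 34.8 in KO (-0.45 ± 0.28, edgeR adjusted p = 0.963). The 1 gene higher at that p was Nr4a2, at 16.5, 18.9 and 20.6 CPM in WT and 27.6, 25.7 and 23.9 in KO (0.46 ± 0.19). Fos was at 33.7, 30.7 and 23.7 CPM in WT and 12.7, 63.0 and 22.6 in KO, KO replicates 1 and 2 being the lowest and the highest of the 6.

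Genes of cytokine receptors leaned to lower values. Of 20 cytokine receptor and SOCS genes, 0 were called and 0 were higher and 6 lower at an unadjusted p of 0.05, beside 2.22% of all tested genes lower, with a median of -0.08. The 6 were Cish, Ifngr2, Il7r, Il4ra, Socs3 and Il9r. Cish, a feedback inhibitor of cytokine signalling, was at 85.2, 94.7 and 90.2 CPM in WT and 73.5, 65.8 and 50.6 in KO, without overlap (-0.51 ± 0.13, edgeR adjusted p = 0.443). Il4ra, the IL-4 receptor gene, was at 123, 130 and 121 CPM in WT and 92.5, 100 and 86.2 in KO, also without overlap (-0.42). Il7r was at 221, 260 and 167 CPM in WT and 108, 143 and 189 in KO, where KO replicate 3 lay within the WT range (-0.56 ± 0.20, edgeR adjusted p = 0.963). Of 8 tested type 2 helper genes, 2 were lower at that p and 0 higher, with a median of -0.40: Gata3 (-0.44 ± 0.16) and Il13, at 8.42, 6.73 and 8.42 CPM in WT and 5.00, 4.37 and 1.69 in KO (-1.09 ± 0.36). KO replicate 3 was the lowest of the 6 for Il13, and without it the type 2 median was -0.15 with 1 gene lower.

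No gene of the naive and memory T cell list passed edgeR's test. The 21 naive and memory genes had a median of -0.15. They summed to 4040, 4330 and 4040 CPM in WT and 3720, 3880 and 3770 in KO, without overlap (exact permutation p = 0.1, the smallest possible). At an unadjusted p of 0.05, 1 was higher and 4 were lower, beside 1.96% and 2.22% of all tested genes. The 4 were Satb1, Il7r, Ccr7 and Il6ra. Ccr7, which guides T cells into lymph nodes, was at 10.2, 12.7 and 13.7 CPM in WT and 9.15, 7.66 and 6.96 in KO (-0.62 ± 0.23, edgeR adjusted p = 0.963). Tcf7 (-0.15 ± 0.21) and Lef1 (-0.19 ± 0.17) had overlapping groups. Dapl1 was the 1 gene higher, from 2.09 ± 0.266 to 3.65 ± 1.23 CPM (0.80 ± 0.33).

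The CD8 genes had higher and Cd4 lower values in KO, none of them called. Cd8b1 was at 411, 426 and 408 CPM in WT and 504, 681 and 560 in KO, wholly apart (0.49 ± 0.22, edgeR adjusted p = 0.963). Cd8a was at 319, 371 and 368 CPM in WT and 372, 497 and 506 in KO, apart by a small margin (0.38 ± 0.18). Cd4 was at 458, 371 and 359 CPM in WT and 385, 312 and 209 in KO, with overlap (-0.39 ± 0.23). Foxp3, the factor that defines regulatory T cells, overlapped too, at 23.9 ± 4.47 CPM in WT and 22.7 ± 6.56 in KO. Tnfrsf9, the costimulatory receptor 4-1BB, was at 93.0, 69.5 and 99.1 CPM in WT and 159, 211 and 89.1 in KO (0.81 ± 0.24, edgeR adjusted p = 0.761). Without KO replicate 3, which lay within the WT range, its adjusted p was 0.0297, and 14 of the 15 alternative settings did not call it.

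Metabolic, survival and damage response genes gave few values past even the unadjusted threshold. None of 22 respiratory chain genes reached it, although all 22 were above 0 (median 0.22), as were 10159 of all 18447 tested genes. Of 20 glycolysis genes 1 was higher and 0 lower, with a median of 0.18, and of 24 cholesterol and fatty acid synthesis genes 1 was higher, Hmgcs1. Neither the 25 ribosome biogenesis and MYC targets nor the 14 tested BCL-2 family genes had a member past it. Of 21 tested p53 targets 1 was lower, Sesn1, with overlapping groups (-0.36 ± 0.15), and 1 was higher, with a median of 0.0 over the list. The higher one was Perp, at 4.27, 3.31 and 3.08 CPM in WT and 7.55, 7.09 and 5.57 in KO, without overlap (0.92 ± 0.27, edgeR adjusted p = 0.71, DESeq2 0.0238). Cdkn1a, a cell cycle inhibitor gene and another target, was at 13.1, 10.8 and 10.8 CPM in WT and 19.0, 11.9 and 12.7 in KO, with overlap (0.33 ± 0.23). The 32 gene lists other than the histone genes held 555 distinct tested genes. Of these, 59 had an unadjusted p under 0.05, beside 4.18% of all tested genes. The 5 called, beside 0.0542% of all tested genes, were Ifi208 and the 4 genes of the Y-linked list.

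**Figure D4:**
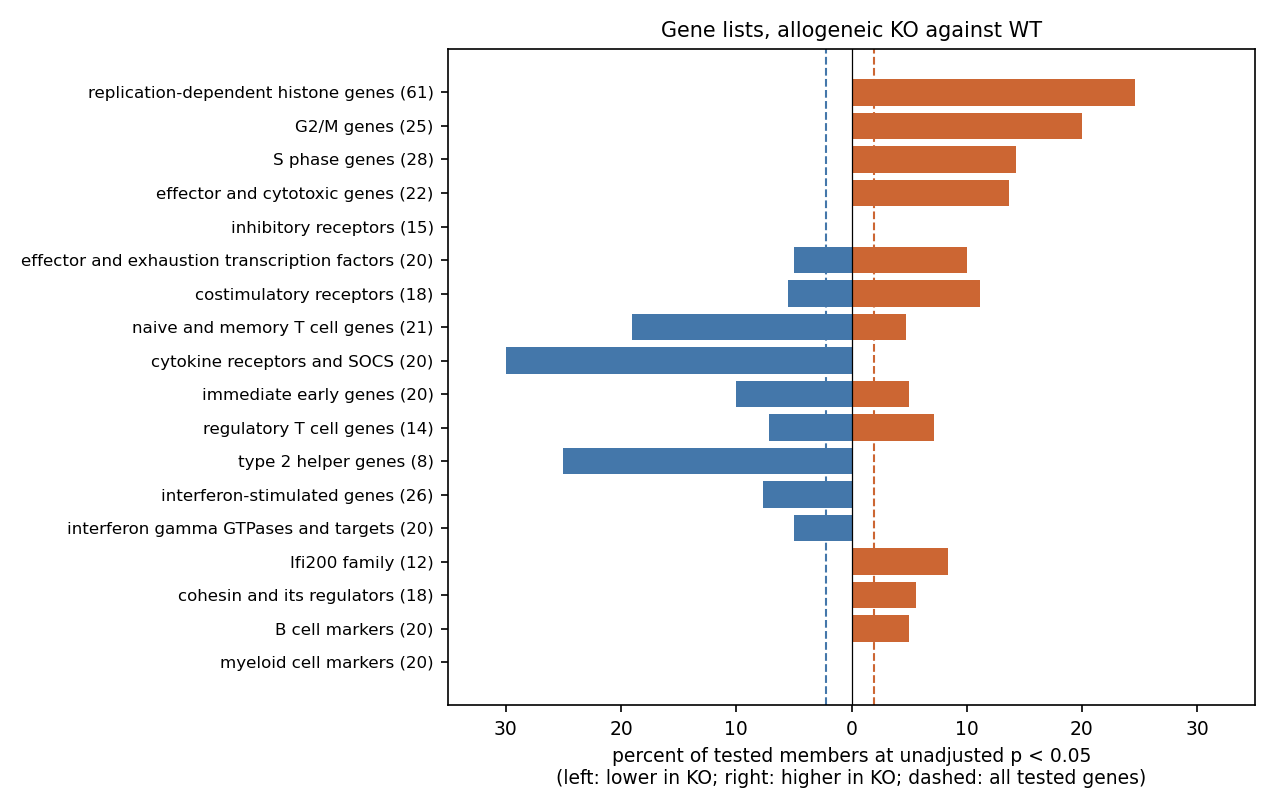
Share of the tested members of each gene list with an unadjusted p under 0.05, in percent, lower in KO to the left and higher in KO to the right, with dashed lines at the shares over all tested genes (2.22% and 1.96%). The histone, S phase, G2/M, effector, cohesin, Ifi200 and B cell lists have members to the right alone. The cytokine receptor, type 2 helper, interferon-stimulated and interferon gamma lists have members to the left alone.

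Several genes passed in DESeq2 and not in edgeR. Il17rb, the IL-25 receptor gene, was at 7.29, 11 and 5.81 CPM in WT and 3.33, 3.05 and 2.52 in KO, without overlap (-1.44 ± 0.25, edgeR adjusted p = 0.0885, DESeq2 2.32e-05). Abca1, the cholesterol exporter gene, was at 10.8, 10.4 and 8.03 CPM in WT and 3.05, 2.80 and 5.85 in KO (-1.31 ± 0.27, edgeR 0.244, DESeq2 0.0018). Without KO replicate 3, the highest KO library for Abca1, its edgeR adjusted p was 0.0105. Of 15 alternative settings, 13 did not call Abca1. Plcb4, a phospholipase gene, was at 4.01, 3.09 and 3.50 CPM in WT and 19.5, 99.5 and 14.4 in KO, without overlap (3.66 ± 0.82, edgeR 0.41, DESeq2 0.00118). KO replicate 2 weighs most in the KO mean. In the syngeneic libraries Plcb4 was at 2.65, 4.86 and 3.70 CPM in WT and 66.6, 51.9 and 13.4 in KO (3.56 ± 0.82, edgeR adjusted p = 0.0494). Chromosome 3, where Gm33707 lies, held 10 of the DESeq2 calls among 1031 tested genes (0.97%), beside 0.417% over the genome. Among these were Npnt (1.36), Dclk1 (1.24), Rnf13 (0.92) and Dclk2, at 10.2, 11.5 and 12.6 CPM in WT and 23.2, 22.2 and 29.9 in KO (1.14). Ecm1 (-1.01), Gm42974 (-1.03) and Miga1 (-0.48), also on chromosome 3, were lower. The share was 0.794% on chromosome 14 (5 of 630 genes), where Wapl lies. Several other chromosomes were above 0.417% too, such as 13 (0.613%), 8 (0.572%), 17 (0.571%) and 2 (0.555%). A link of these calls to the position of Wapl was not tested. On the Y chromosome the share was 50% of the 8 tested genes.

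The KO difference was then set against that in the syngeneic libraries by a test of the difference between both differences. Of the 18447 genes, 88 (0.477%) passed. Ifi208 was among them: its log2 fold change was 2.07 ± 0.19 in the allogeneic and 0.74 ± 0.18 in the syngeneic libraries, a difference of 1.33 ± 0.25 (adjusted p = 0.0399). Its WT level was lower in the allogeneic libraries, 8.02 ± 1.31 against 53.8 ± 8.29 CPM. The KO level of Ifi208 was 33.7 ± 2.90 CPM in the allogeneic and 90.0 ± 21.0 CPM in the syngeneic libraries. In CPM the syngeneic rise was thus the larger. Lag3, with 0.19 ± 0.11 after allogeneic transplant, had 1.60 in the syngeneic libraries, where it rose from 8.04 ± 0.471 to 24.3 ± 2.04 CPM (difference -1.41 ± 0.16, adjusted p = 0.00291). Maf, Egr2 and Egr3 had negative values in the allogeneic and positive values in the syngeneic libraries (0.57, 0.59 and 0.51), and the differences of -1.26, -1.20 and -1.21 passed (adjusted p = 0.0316, 0.0347 and 0.0499). Rnf43 had like values, 1.01 and 0.80 (adjusted p of the difference 1.0). The difference for Gm42427 was not past the threshold either, with -1.08 and -1.01.

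**Figure D5:**
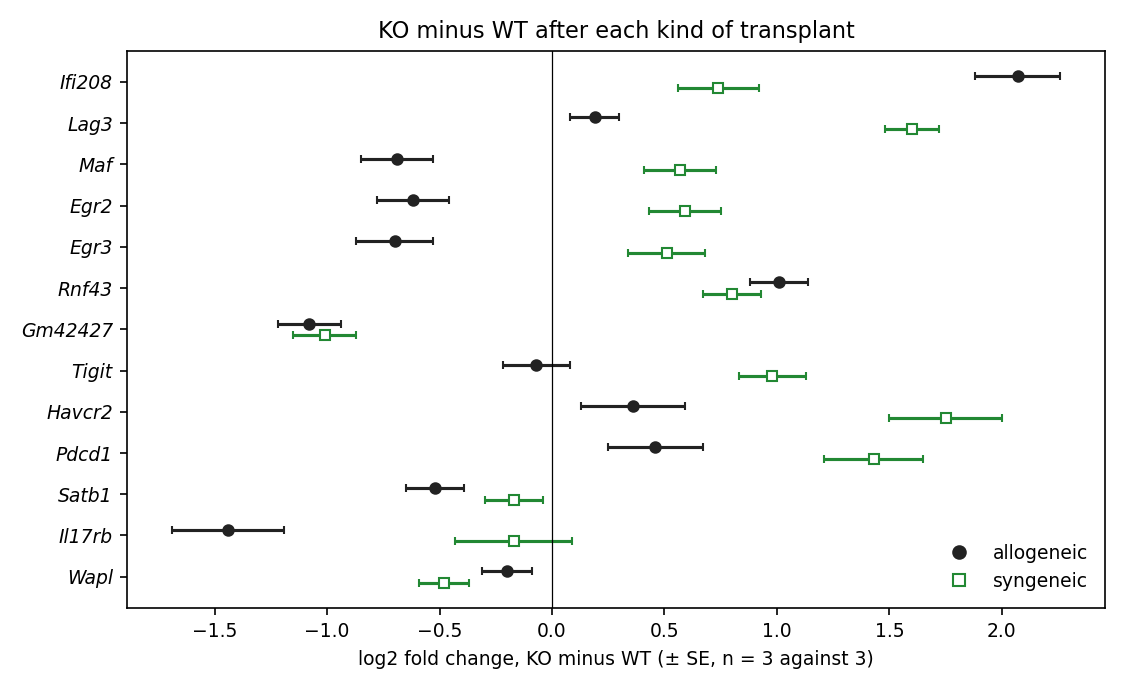
Log2 fold change, KO minus WT (n = 3 against 3), for named genes in the allogeneic (filled circles) and syngeneic (open squares) libraries. Error bars are standard errors derived from the F statistic of the fit of 12 libraries. Ifi208 is at 2.07 and 0.74, Lag3 at 0.19 and 1.60, and Maf at -0.69 and 0.57.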

How the data were processed

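The authors deposited a table of expected counts per gene, values that need not be whole (94.5% to 95.0% of them are), for libraries made from 100 ng of total RNA after ribosomal RNA depletion. The tools named, per the submitters' processing notes, are Bowtie2 2.2.1, Cuffdiff 2.2.1, Cufflinks and TopHat2 2.0.13, with the build GRCm38, and how multi-mapped reads were shared is not given in the sources used here. Columns were matched to samples by their names, and 6 columns of values that matched no sample were not used. The naive T cell samples were not analysed here. Of 46073 gene identifiers, 45139 matched GENCODE M21. Counts were rounded, filtered (filterByExpr, minimum count 10), scaled by TMM and fitted over 12 libraries (4 groups of 3, 8 residual degrees of freedom) in edgeR 4.0.16 (quasi-likelihood, robust, two-sided, Benjamini-Hochberg over 18447 genes, threshold 0.05; R 4.3.3). CPM values are counts per 1000000 after TMM scaling, and fold changes are log2, KO minus WT, ± SE. The alternatives were DESeq2 1.42.0, other scaling, filtering, sample sets and a replicate block. On simulated counts, 78% of genes changed by 1 on the log2 scale and 95% of those changed by 2 were recovered, with 7 false calls among 18447 genes. Only genes above a minimum mean level were changed, and the spread was taken from the fit itself. No simulated library was made to deviate as KO replicate 3 did, so these shares need not hold for the real libraries.

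Named genes were Wapl, all called genes, the 6 largest DESeq2 calls in each direction with at least 5 CPM, the 2 smallest p-values of each list, landmark genes and the members of the Ifi200, Y-linked, cohesin and H4 lists. Other genes in the text, such as Fos, Nr4a2, Il4ra or Dclk2, were chosen after their values were seen. The comparison and the lists were chosen with earlier results of these data known. Lists are described by counts and medians, without a test. Sums over libraries were compared by exact permutation tests, two-sided, whose smallest p is 0.1. Same-numbered KO and WT replicates did not deviate together, so the numbers were not taken as pairs. A few genes under the naming rule are not reported here.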

Additional observations from a re-analysis of the deposited data

Results flagged for a closer look

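In 6 named genes the KO minus WT difference itself differed between the allogeneic and the syngeneic libraries, by edgeR's test of the difference of both log2 fold changes. For Lag3 the allogeneic log2 fold change was lower, with a difference of -1.41 that kept its call in all 19 alternative settings (adjusted p at most 0.0204). For Maf the difference was -1.26, for Egr3 -1.21 and for Egr2 -1.20. The 3 allogeneic KO libraries lay below the WT libraries for each of these 3 genes, while in the syngeneic libraries Maf was at 17.9, 23.0 and 19.7 CPM in WT and 32.4, 27.6 and 30.2 in KO, Egr2 at 11.5, 9.89 and 9.83 and 15.4, 15.7 and 15.9, and Egr3 at 8.20, 7.17 and 6.69 and 12.2, 10.7 and 8.49. Of the 19 settings, 7 lost the call for Maf (adjusted p up to 0.104), 9 for Egr2 (up to 0.122) and 11 for Egr3 (up to 0.182). For Ifi208 the difference was 1.33, with the larger log2 fold change after allogeneic transplant, and 11 settings lost the call (up to 0.125).

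For Hbb-bs, a haemoglobin gene, the difference was 6.13. It came from the syngeneic libraries, at 886, 1790 and 1510 CPM in WT and 8.72, 5.05 and 24.7 in KO. The allogeneic log2 fold change was -0.64 ± 0.58. Of the 19 settings, 7 lost the call (adjusted p up to 0.075).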

How the results depend on the processing

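In place of 10 calls, DESeq2 gave 77, a fit of the 6 allogeneic libraries alone 6, and a fit without 4 Y-linked genes, Xist and Tsix 5. Leaving out 1 library gave 3 to 15, with 3 without any 1 WT library and 15 without KO replicate 3. Other size factors (10), no filter on low counts (11), no ribosomal RNA genes (10) and the H4 pair summed (8, chosen after seeing the data) stayed within 1.5 times the count. The test of the difference between transplants gave 88 calls, 293 with DESeq2 and 25 to 239 when 1 library was left out, 239 without syngeneic WT replicate 1. No named gene that was called reversed its direction under any alternative, and Ifi208 and Gm33707 kept the call under all 15, while the other 8 lost it under at least 1.

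Deviations of same-numbered KO and WT libraries correlated at 0.01, -0.137 and 0.184. With the replicate block, 11 genes were called (9 of them shared), 7 in the 6 libraries alone, and 64 for the difference between transplants, where Ifi208 had an adjusted p of 0.0694 and Hbb-bs 0.0534.

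Whether depth limited a call was not tested. Genes with few counts in WT, such as Hist1h4m, Gm33707 and the Y-linked genes, have fitted fold changes that depend on a handful of reads.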

Other observations

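Some gene groups not described above can be given as values. In the allogeneic comparison Ahr, a ligand-activated transcription factor gene, was at 68.0, 74.9 and 68.3 CPM in WT and 69.1, 41.5 and 40.1 in KO (-0.49 ± 0.19). The cyclin-dependent kinase inhibitor genes Cdkn2a (3.08 ± 0.473 to 4.68 ± 0.805 CPM, SD, n = 3; 0.61 ± 0.23) and Cdkn2b (1.16 ± 0.158 to 1.97 ± 0.403; 0.76 ± 0.34), neighbours on chromosome 4, had higher values in all 3 KO libraries than in any WT library. Ccnd2, a D cyclin gene, was at 280, 254 and 234 CPM in WT and 225, 177 and 196 in KO, also without overlap (-0.36 ± 0.15). None of these passed in edgeR after adjustment.

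Rab4a, a gene of endosome recycling, was at 20.8, 19.2 and 15.8 CPM in WT and 9.41, 11.1 and 7.80 in KO, without overlap (-0.98 ± 0.17). Its adjusted p was 0.0885 in edgeR and 1.82e-05 in DESeq2, and its syngeneic log2 fold change was -0.69 ± 0.17 (adjusted p = 0.0463).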
